A study of Mus musculus with 103 samples.

Results

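The imprinted growth genes and insulin-like growth factor (IGF) receptors described here are 10 genes chosen by symbol: Igf2, Igf1, Igf1r, Igf2r, Grb10, H19, Dlk1, Meg3, Peg3 and Mest. All 10 were found among the 43283 Ensembl entries of the bulk table and among the 43282 of the table of single-cell wells. All 10 also passed the low-value filter of the bulk test, a mean of 1 TPM or more over the 8 libraries (TPM are shares of a library, corrected for transcript length and scaled to a common total), a filter that kept 22492 genes.

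The study sequenced RNA of muscle stem cells, the cells that lie along muscle fibres and repair them after injury, from C57BL/6 mice of 3 ages. Bulk libraries came from 3 young mice, listed at 3 months in the age field and at 2 months in the sample descriptions, 2 middle-aged mice of 12 and 13 months, and 3 old mice of 24 months. Single-cell wells came from 1 old mouse (31 wells, 24 months) and 1 young mouse (64 wells, 3 months). All groups were untreated, and the labels name no transgene, no sex and no sort gate. The source is named muscle stem cell, the cell type field reads Muscle cell, and myoblast is the word of the design text. A culture step with FGF-2 is described, but its place before or after RNA isolation is not.

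Imprinted genes are transcribed mainly from the copy inherited from 1 parent, and many of them set the rate of growth before birth. IGF1 and IGF2 are secreted ligands that signal through the receptor kinase encoded by Igf1r, while the product of the imprinted gene Igf2r binds IGF2 and carries it to lysosomes for breakdown. In muscle, IGF signalling drives growth of fibres and division of myoblasts, and Igf2 and H19, neighbours that share an imprinting control region, are high in developing muscle. H19 and Meg3 are noncoding RNAs, and imprinting at both loci is set by methylation of a control region on 1 parental copy.

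Positions follow GENCODE vM21 on mm10, which held 42782 of the 43283 bulk IDs. H19 (chr7:142575529-142578143, minus strand) and Igf2 (chr7:142650766-142666816, minus strand) lie 72.6 kb apart. Dlk1 (chr12:109452823-109463336) and Meg3 (chr12:109541001-109571726), both on the plus strand, lie 77.7 kb apart. Igf2r (chr17:12682406-12769664, minus strand) is overlapped on the opposite strand by the noncoding gene Airn, Mest (chr6:30723547-30748465, plus strand) by Copg2, Igf1 (chr10:87858265-87937042, plus strand) by Igf1os, and Igf2 by Igf2os. Other annotated genes on the opposite strand overlap H19 (Gm27483 and Gm27786), Meg3 (Gm26906) and Mest (Gm44296). The strandedness of the counting is not given in the sources used here, so reads of such opposite partners cannot be told apart. Igf1r (chr7:67952827-68233668, plus strand), Peg3 (chr7:6703892-6730431, minus strand) and Grb10 (chr11:11930508-12038683, minus strand) overlap no other annotated gene.

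The 300-base windows around the RefSeq starts of Igf1r and Igf1 (250 bases before to 50 after) are printed because they are far apart in CpG content, and because these genes are the receptor and the ligand whose bulk levels had separate ranges in old and young libraries. They were taken from RefSeq on GRCm38.p6. Capitals mark the dinucleotide CG, which reads the same on both strands.
Igf1r, chr7:67952007-67952306, plus strand: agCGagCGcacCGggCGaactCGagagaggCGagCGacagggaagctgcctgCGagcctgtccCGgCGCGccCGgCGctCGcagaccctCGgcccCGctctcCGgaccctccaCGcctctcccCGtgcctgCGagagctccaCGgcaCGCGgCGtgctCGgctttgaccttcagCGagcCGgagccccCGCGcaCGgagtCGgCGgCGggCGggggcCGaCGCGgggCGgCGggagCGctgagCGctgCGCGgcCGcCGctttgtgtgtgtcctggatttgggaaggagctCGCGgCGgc
Igf1, chr10:87860861-87861160, plus strand: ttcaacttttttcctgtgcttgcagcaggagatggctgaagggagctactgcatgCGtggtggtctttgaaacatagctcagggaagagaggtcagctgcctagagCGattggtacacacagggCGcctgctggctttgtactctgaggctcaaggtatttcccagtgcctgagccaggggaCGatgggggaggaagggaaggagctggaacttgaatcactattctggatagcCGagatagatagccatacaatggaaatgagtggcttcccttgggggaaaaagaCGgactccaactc
The Igf1r window held 48 CG and the Igf1 window 6, against a median of 7 over the 32851 windows of the RefSeq table, of which 43.5% held at least 10. RefSeq windows matched 9 of the 10 genes, 16 windows in all. Those of Igf2r (34 CG) and of 1 of the Grb10 starts (45 CG) were also CG-rich, Peg3 had 13, Dlk1 had 9, and the 4 starts of Igf2 held between 2 and 24. These are counts of letters in the reference sequence, and no methylation was measured.

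MicroRNAs are encoded on the same strand within H19 (Mir675), Igf2 (Mir483), Mest (Mir335) and Meg3 (Mir770). Mir1906-1 is also annotated on the same strand within Meg3, and its sequence is not printed. The 5p arm of each of the other 4 is printed from RefSeq on GRCm38.p6, as small RNAs that share these loci, with the seed (bases 2 to 8) in capitals.
mmu-miR-675-5p: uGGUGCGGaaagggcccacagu
mmu-miR-483-5p: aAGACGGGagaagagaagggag
mmu-miR-335-5p: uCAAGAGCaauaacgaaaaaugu
mmu-miR-770-5p: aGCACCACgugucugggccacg
No seed is shared between these 4. The entries of these 4 microRNA genes were listed at 0 in all 8 bulk libraries, so the host values below carry no value for these microRNAs.

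Because TPM are corrected for length, levels can be set side by side between genes within a library. In young libraries the order of mean levels was Peg3, Meg3, Grb10, Igf2, Igf1, Igf2r, Mest, Igf1r, H19 and Dlk1. In middle-aged libraries it was Peg3, Igf2, Meg3, Grb10, Igf2r, Igf1, Igf1r, Mest, H19 and Dlk1, and in old libraries Peg3, Igf2, Meg3, Grb10, Igf2r, H19, Igf1r, Mest, Igf1 and Dlk1. Peg3 stood apart at the top in all ages, at 889 ± 49.8 TPM in old and 791 ± 68.0 TPM in young libraries (SD, n = 3 each), percentiles 99.8 and 99.6 of the tested genes. Below it, neighbours in the order had overlapping ranges, with these exceptions: Meg3 and Grb10, Mest and Igf1r, and H19 and Dlk1 in young libraries; Igf2 and Meg3, Meg3 and Grb10, and Grb10 and Igf2r in middle-aged libraries; and Grb10 and Igf2r in old libraries.

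**Figure D1:**
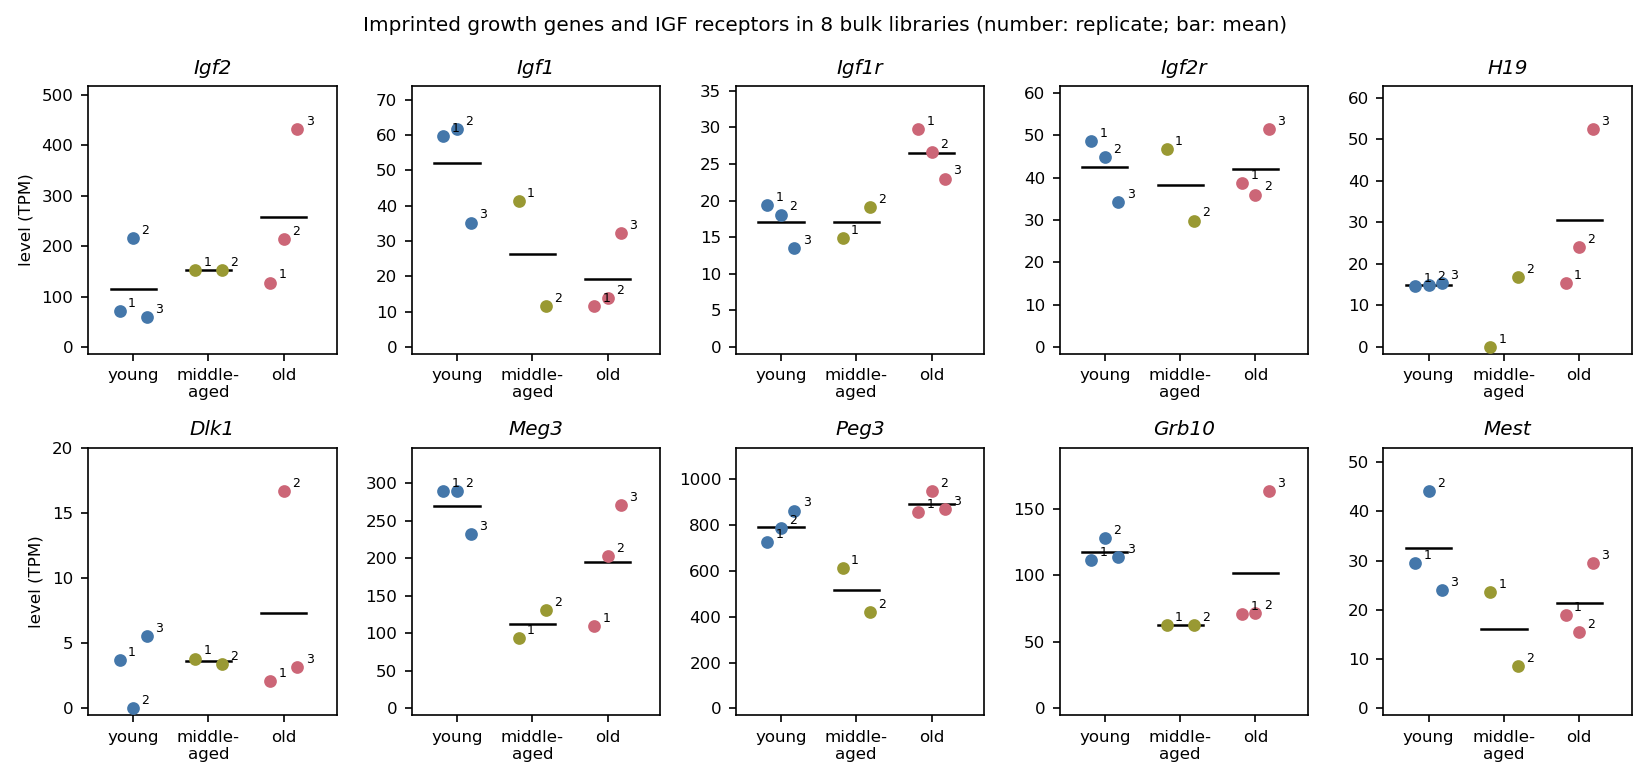
Level in TPM (linear axes, 1 panel per gene) of the 10 genes in each bulk library, by age, with replicate numbers beside the points and a bar at the mean of groups in which no library is listed at 0. Igf1r lay between 22.99 and 29.7 TPM in old libraries, above all 5 others, and Igf1 lay between 11.57 and 32.2 TPM in old libraries, below all 3 young ones.

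Across the ages, the ligands stood opposite each other in old and young libraries: Igf2 was 2.34-fold higher in old libraries and Igf1 was lower, at 0.356 of its young level, on the log2(TPM + 1) scale. Neither difference passed the threshold over all genes. Igf2 had 70.5, 215.74 and 58.65 TPM in young libraries, 152.75 and 152.7 TPM in middle-aged libraries, and 127.61, 213.39 and 430.81 TPM in old libraries. Old replicate 3 was the highest of all, and young replicate 2 lay above 2 of the old libraries, so the groups overlapped. The limma difference between old and young was 1.23 log2 units (SE 0.55, 95% interval 0.02 to 2.44, unadjusted p = 0.0467, adjusted p = 0.833), and 0.77 without old replicate 3.

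Igf1, the ligand that growth hormone induces in liver and that muscle also makes locally, had 59.76, 61.55 and 35.22 TPM in young libraries, 41.26 and 11.53 TPM in middle-aged libraries, and 11.57, 13.89 and 32.2 TPM in old libraries. Every old library lay below every young one, by a narrow margin between old replicate 3 and young replicate 3, and 1 middle-aged library lay within the young range and the other just below the old one. The old minus young difference was -1.49 log2 units (SE 0.58, 95% interval -2.78 to -0.20, unadjusted p = 0.0277, adjusted p = 0.808 by limma). In bulk RNA, fewer cells that make a transcript and less of it per cell cannot be told apart.

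Per library, the ratio of Igf2 to Igf1 TPM, a quantity chosen after the values were seen, was 1.18, 3.51 and 1.67 in young libraries, 3.70 and 13.2 in middle-aged libraries, and 11.03, 15.4 and 13.4 in old libraries. The old range lay above the young range, and middle-aged replicate 2 lay inside the old range. On the log2 scale the ratio averaged 3.63 ± 0.25 in old and 0.92 ± 0.80 in young libraries (SD, n = 3 each), a difference of 2.72, or 6.58-fold. The log2 ratio was 1.82 higher in middle-aged than in young libraries and 0.89 higher in old than in middle-aged libraries. Because the ratio was chosen for how the ligands differed, these values are a description, with no test. The summed TPM of both ligands overlapped between ages, at 130.26, 277.29 and 93.87 TPM in young libraries, 194.01 and 164.23 TPM in middle-aged libraries, and 139.18, 227.28 and 463.01 TPM in old libraries.

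**Figure D2:**
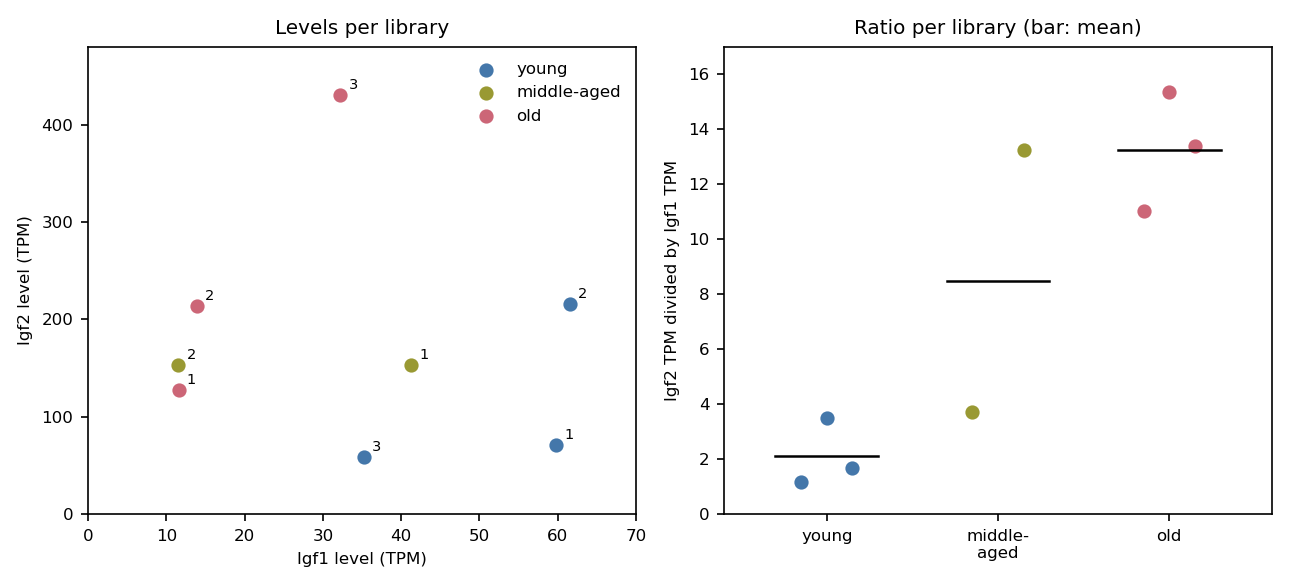
Left, Igf2 TPM against Igf1 TPM in the 8 bulk libraries, with replicate numbers; right, the ratio of Igf2 TPM to Igf1 TPM in each library by age, with a bar at the mean. The old ratios lie between 11.03 and 15.4 and the young ratios between 1.18 and 3.51, while the middle-aged libraries are at 3.70 and 13.2.

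Of the receptors, Igf1r was 1.53-fold higher in old than in young libraries and Igf2r was at 0.988 of its young level. Igf1r had 19.4, 18.09 and 13.55 TPM in young libraries, 14.92 and 19.12 TPM in middle-aged libraries, and 29.7, 26.64 and 22.99 TPM in old libraries. All 3 old libraries lay above all 5 others, while the middle-aged libraries lay within the young range. The old minus young difference was 0.62 log2 units (SE 0.44, 95% interval -0.35 to 1.58, adjusted p = 0.839), and old minus middle-aged was 0.61 (adjusted p = 0.802, limma). The limma error draws on genes of like level: the within-group SD of Igf1r itself was 0.23 log2 units, percentile 1.36 among the 3227 genes within 1.5-fold of its level. That of Igf2 was 0.84, percentile 88.2 among the 373 genes within 1.5-fold of its level, so its own libraries spread more than those of most genes of like level.

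Igf2r had 48.51, 44.83 and 34.14 TPM in young libraries, 46.81 and 29.85 TPM in middle-aged libraries, and 38.77, 35.98 and 51.34 TPM in old libraries. All groups overlapped, and the old minus young difference was -0.02 log2 units with a 95% interval of -0.88 to 0.84 (adjusted p = 1, limma). Airn, the noncoding RNA whose transcription silences Igf2r on the paternal copy in most mouse tissues, had 144.39, 73.01 and 94.68 TPM in young libraries, 121.68 and 88.94 TPM in middle-aged libraries, and 31.27, 70.04 and 114.68 TPM in old libraries. Airn overlapped between ages too, with old replicate 1 the lowest.

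Grb10 encodes an adaptor that binds the insulin and IGF1 receptors and dampens their signal. It had 111.4, 128.3 and 113.46 TPM in young libraries, 62.47 and 62.89 TPM in middle-aged libraries, and 71.11, 71.55 and 163.38 TPM in old libraries. The middle-aged libraries were the lowest of all 8, and the old ones lay on both sides of the young. Grb10 was at 0.537 of its young level in middle-aged libraries (-0.90 log2 units, SE 0.43, unadjusted p = 0.0604, adjusted p = 0.626, limma). The old minus young difference was -0.32 log2 units (adjusted p = 0.882), between -0.71 and -0.12 without any 1 library. Old minus middle-aged was 0.58 (adjusted p = 0.782), and 0.18 without old replicate 3.

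H19, the noncoding RNA downstream of Igf2, had 14.67, 15.02 and 15.3 TPM in young libraries. In middle-aged libraries it was listed at 0 in replicate 1 and had 16.74 TPM in replicate 2, and in old libraries it had 15.39, 24.01 and 52.36 TPM. The young libraries lay close together, and old replicate 1 was above the highest of them by less than 0.1 TPM, so the margin between the old and the young range is narrow. The old minus young difference was 0.81 log2 units (SE 0.93, 95% interval -1.25 to 2.87, adjusted p = 0.878, limma), and 0.34 without old replicate 3. The old minus middle-aged difference of 2.73 log2 units (unadjusted p = 0.0244, adjusted p = 0.724) and the middle-aged minus young difference of -1.93 (unadjusted p = 0.0926, adjusted p = 0.626) rest on the library listed at 0. Without that library the values were 0.66 and 0.15. Without middle-aged replicate 2, which leaves it as the lone middle-aged library and assumes that it varies like the other groups, they were 4.81 (adjusted p = 0.0239) and -4.00 (adjusted p = 0.0473). Over all settings tried, the adjusted p lay between 0.0239 and 0.840 for old minus middle-aged, and between 0.0473 and 0.968 for middle-aged minus young.

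Meg3, the maternally expressed noncoding RNA of the Dlk1 locus, had its lowest mean in middle-aged libraries. It had 288.68, 289.34 and 231.87 TPM in young libraries, 93.99 and 130.46 TPM in middle-aged libraries, and 110.05, 202.91 and 270.61 TPM in old libraries. The middle-aged and young ranges were apart, and the old libraries spanned the space between them, with old replicate 1 inside the middle-aged range. Meg3 was at 0.415 of its young level in middle-aged libraries (-1.27 log2 units, SE 0.41, 95% interval -2.17 to -0.37, unadjusted p = 0.0102, adjusted p = 0.423, limma). Old minus young was -0.56 log2 units (SE 0.36, adjusted p = 0.839), -0.20 without old replicate 1 and -0.84 without old replicate 3. Old minus middle-aged was 0.71 (adjusted p = 0.724), and 0.43 without old replicate 3.

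Rian, another noncoding RNA of the Meg3 locus, had 285.76, 279.97 and 319 TPM in young libraries, 124.75 and 144.63 TPM in middle-aged libraries, and 126.4, 151.81 and 369.82 TPM in old libraries. As with Meg3, both middle-aged libraries were below all young ones (-1.13 log2 units, unadjusted p = 0.0267, adjusted p = 0.558, limma). For Rian the old libraries lay on both sides of the young range, whereas for Meg3 none lay above it. Dlk1, the paternally expressed coding gene of the locus, which encodes a membrane protein with Notch-ligand-like repeats, had 3.73 and 5.58 TPM in young replicates 1 and 3 and was listed at 0 in young replicate 2. It had 3.83 and 3.39 TPM in middle-aged libraries and 2.08, 16.68 and 3.16 TPM in old libraries. Its old minus young difference of 0.95 log2 units (SE 1.01, adjusted p = 0.869) had overlapping groups, and was 0.13 without young replicate 2 and 0.19 without old replicate 2.

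Peg3, expressed from the paternal copy, encodes a zinc finger protein and has been used to mark stem cells of several adult tissues, muscle included. It had 725.71, 786.22 and 861.4 TPM in young libraries, 609.47 and 418.67 TPM in middle-aged libraries, and 855.05, 946.3 and 866.16 TPM in old libraries. Both middle-aged libraries lay below all others, and the old and young ranges overlapped narrowly. Peg3 was at 0.641 of its young level in middle-aged libraries (-0.64 log2 units, SE 0.27, 95% interval -1.25 to -0.04, unadjusted p = 0.0400, adjusted p = 0.606, limma; -0.37 log2 units without middle-aged replicate 2), and 1.76-fold higher in old than in middle-aged libraries (0.81 log2 units, SE 0.27, unadjusted p = 0.0135, adjusted p = 0.689). Old minus young was 0.17 log2 units (SE 0.25, adjusted p = 0.906).

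Mest, which encodes an enzyme-like protein of the alpha/beta hydrolase fold and is expressed from the paternal copy, had 29.54, 44.1 and 24.07 TPM in young libraries, 23.62 and 8.62 TPM in middle-aged libraries, and 18.97, 15.56 and 29.56 TPM in old libraries. The middle-aged libraries were below all young ones by a margin under 0.5 TPM at its narrowest, and old and young overlapped. The middle-aged minus young difference was -1.08 log2 units (SE 0.58, adjusted p = 0.626, limma). It was -1.76 without middle-aged replicate 1 and -0.40 without middle-aged replicate 2. Old minus young was -0.59 (SE 0.52, adjusted p = 0.839), and -0.36 without young replicate 2. Copg2, which overlaps Mest on the opposite strand, had 18.14, 14.52 and 9.86 TPM in young libraries and 10.92, 5.48 and 23.04 TPM in old libraries. In middle-aged libraries it had 26.82 TPM in replicate 1 and was listed at 0 in replicate 2, where Mest was lowest. The part of Copg2 reads in the Mest values was not tested.

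**Figure D3:**
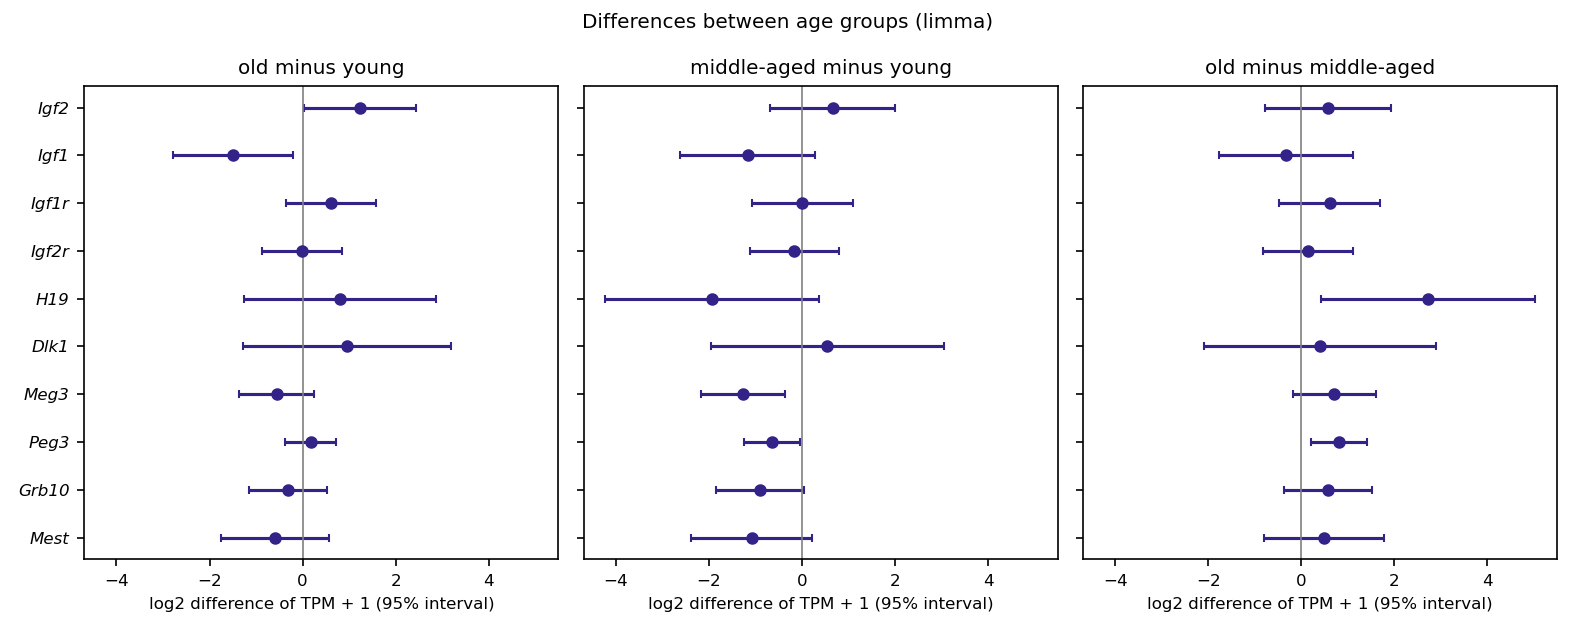
Differences of log2(TPM + 1) between age groups for the 10 genes, as limma estimates (points) with 95% intervals (lines), for old minus young, middle-aged minus young and old minus middle-aged; the vertical line marks 0. In old minus young the intervals of Igf2 and Igf1 leave out 0 on opposite sides, and in middle-aged minus young those of Meg3 and Peg3 do so below 0, but none of these passed the adjusted threshold.

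Counted together for old minus young, 5 of the 10 genes were higher and 5 lower (Igf2r, the nearest to 0, turned higher without mitochondrial genes), with a median of 0.08 log2 units against 0 over all 22492 genes tested. None was called at an adjusted p under 0.05 (0 of 10), and limma called 0% of all genes. At an unadjusted p under 0.05 there were 2, Igf2 higher and Igf1 lower, where 5.89% of all genes had such a p. Groups did not overlap for 2 higher genes (H19 and Igf1r), against 5.85% of all genes, and for 1 lower gene (Igf1), against 4.16%.

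For middle-aged minus young, 3 genes were higher and 7 lower (of the 3, Igf1r and Dlk1 turned lower after quantile normalization), with a median of -0.77 log2 units against 0.18 over all genes tested. The call count was 0 of 10, where limma called 0.00445% of all genes, which is 1 gene, Mapkapk3, listed at 0 in all young libraries. An unadjusted p under 0.05 was found for 2 genes, Meg3 and Peg3, both lower, against 7.78% of all genes in either direction. Groups did not overlap for 4 lower genes (Meg3, Peg3, Grb10 and Mest), against 5.37% of all genes, and for 0 higher genes, against 12.6%. Quantile normalization set the shift of the median of all genes to 0, and the differences of Meg3, Peg3, Grb10 and Mest were then -1.25, -0.53, -0.97 and -1.25 log2 units. Limma called 599 genes without middle-aged replicate 1 and 884 without middle-aged replicate 2, with 1 library standing alone for the group, and of the 10 genes H19 was among the calls without replicate 2.

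For old minus middle-aged, which shares its libraries with both other comparisons, 9 genes were higher and 1 (Igf1) lower, with a median of 0.57 log2 units against -0.09 over all genes tested. Again 0 of 10 were called, and limma called 0% of all genes. An unadjusted p under 0.05 was found for 2 higher genes (H19 and Peg3), against 6.19% of all genes in either direction. Groups did not overlap for 3 higher genes (Igf1r, Peg3 and Grb10), against 7.15% of all genes, and for 0 lower genes, against 12.8%. Limma called 557 genes without middle-aged replicate 1 and 799 without middle-aged replicate 2, and of the 10 genes H19 was among the calls without replicate 2.

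Across the 8 bulk libraries, pooled over ages, some of the genes varied together. These correlations of log2(TPM + 1) are descriptions, since the libraries include 3 age groups and share a scaling to a common total. Meg3 and Grb10 had the highest Pearson r of the pairs, 0.86 (Spearman rho 0.86, and r 0.85 without the 2 libraries farthest from the Meg3 median). Igf1 and Mest had r 0.85 (rho 0.81, and 0.86 without 2 libraries), Igf2r and Mest r 0.79 (rho 0.69, and 0.59 without 2), and Grb10 and Mest r 0.74 (rho 0.79, and 0.65 without 2). H19 and Igf2, which share enhancers, had r 0.27 (rho 0.40, and 0.53 without 2). Dlk1 and Meg3 had r -0.12 (rho -0.29, and 0.39 without 2), while Meg3 and Rian had r 0.89 (rho 0.79, and 0.81 without 2). Meg3 and Mirg had r -0.41 (rho -0.48, and -0.48 without 2). Mest and Copg2, which overlap on opposite strands, had r 0.85 (rho 0.64, and 0.79 without 2).

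The search for like patterns covered 9691 genes that averaged 5 TPM or more and were above 0 in at least 6 libraries. The nearest to Grb10 were Col6a2 (r 0.96), the imprinted Rian (0.96) and Itga7 (0.96), an integrin chain of muscle stem cells. The nearest to Igf1 was Slc30a9 (0.97), to Mest Gbas (0.98), to H19 Rhot2 (0.96), to Igf2r Mier3 (0.96), to Meg3 Ipo4 (0.96), to Igf2 Coro6 (0.95), to Igf1r Fads1 (0.95) and to Peg3 Gm26584 (0.96). Each is the highest of 9691 correlations over 8 libraries, and no value for unrelated genes was computed, so these names show no likeness beyond what such a search can give. Dlk1 was under the level limit.

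Genes that surround the 10 in their pathways were counted from 4 lists, and 0 of their genes were called in any of the 3 comparisons. Of 24 IGF receptor and signalling genes, all tested, 16 were higher and 8 lower in old than in young libraries (median 0.23 log2 units). An unadjusted p under 0.05 was found for 1 of the 24, where 5.89% of all genes had one. It was Eif4ebp1, the translation repressor that mTOR phosphorylates, with a difference of -2.53 log2 units (p = 0.0498, adjusted p = 0.833, limma). It had 3.23 and 7.09 TPM in old replicates 2 and 3 and was listed at 0 in old replicate 1, against 11.65, 36 and 13.21 TPM in young libraries, and its difference was -1.68 without old replicate 1. The docking protein genes Gab1 (0.67 log2 units) and Irs1 (0.33) were higher in every old than in every young library, and Eif4ebp1 lower. These 2 and 1 of 24 stand beside 5.85% and 4.16% of all genes. Irs1 had 30.74, 34.95 and 38.19 TPM in old libraries and 27.45, 26.13 and 28.43 TPM in young libraries. Mtor, which encodes the kinase of the mTOR complexes, had a difference of -1.34 log2 units with overlapping groups, and -0.84 without young replicate 2. In middle-aged minus young 13 were higher and 11 lower (median 0.03), and in old minus middle-aged 12 and 12 (median 0.06), with 0 at an unadjusted p under 0.05 in both.

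Of 13 genes for IGF-binding proteins and the proteases and inhibitors that act on them, 10 were tested and 8 were higher in old than in young libraries (median 0.65 log2 units). Igfbp5, the binding protein prominent in skeletal muscle, had 215.14, 199.49 and 169.57 TPM in young libraries, 132.41 and 179.29 TPM in middle-aged libraries, and 258.02, 309.53 and 473.42 TPM in old libraries. All old libraries lay above all others. The difference was 0.79 log2 units against young (SE 0.31, unadjusted p = 0.0292, adjusted p = 0.808, limma) and 1.12 against middle-aged (unadjusted p = 0.00899, adjusted p = 0.642). Igfbp7 was also higher in every old than in every young library (0.50 log2 units), while Igfbp6 (1.43) and the protease gene Htra1 (-1.04, and -0.37 without young replicate 3 or -0.52 without old replicate 1) overlapped. Without overlap 2 of the 10 were higher in old than in young libraries, against 5.85% of all genes. An unadjusted p under 0.05 was found for 1 of the 10, against 5.89%. In middle-aged minus young 6 of the 10 were higher (median 0.04), with 1 at an unadjusted p under 0.05 (against 7.78% of all genes), Pappa2 (2.75 log2 units, p = 0.0286), named after its value was seen. In old minus middle-aged 6 of 10 were higher (median 0.38), with 1 at an unadjusted p under 0.05, against 6.19% of all genes.

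Of 14 genes for IGF2 mRNA-binding proteins and for the upkeep of imprints, all tested, 8 were higher in old than in young libraries (median 0.03 log2 units). Igf2bp2, an RNA-binding protein that binds the Igf2 transcript among others, had 1.6 and 1.72 TPM in young replicates 1 and 3 and was listed at 0 in young replicate 2. It had 12.32 and 20.34 TPM in middle-aged libraries and 20.81, 11 and 19.53 TPM in old libraries. Its old and middle-aged bulk libraries lay far above the young ones, an order of old and young that the wells described below did not show. The old minus young difference was 3.19 log2 units (SE 0.69, unadjusted p = 0.000853, adjusted p = 0.501, limma), and between 2.72 and 3.46 without any 1 library. Middle-aged minus young was 3.13 (unadjusted p = 0.0021, adjusted p = 0.327). In old minus young 1 of the 14 genes had an unadjusted p under 0.05, against 5.89% of all genes. Without overlap 1 was higher, against 5.85%. Tet1 (-0.99 log2 units), Igf2bp3 (0.95) and Uhrf1 (-1.30) overlapped between old and young, and moved with single libraries. Without 1 library Tet1 was at -0.32 (old replicate 1), -0.66 (young replicate 1) and -1.55 (old replicate 2), Igf2bp3 at 1.51 (young replicate 1) and Uhrf1 at -2.10 (young replicate 1 or 3).

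In the same list 4 genes, Zfp57, Dnmt3l, Ctcf and Igf2bp3, were higher in both middle-aged libraries than in all others. With Igf2bp2 they make 5 of 14 that were higher than in all young libraries without overlap, where 12.6% of all genes were so. Zfp57, Dnmt3l and Ctcf are named after their values were seen. Zfp57, a zinc finger protein that keeps methylation at imprinted control regions, had 36.53 and 16.83 TPM in middle-aged libraries, against 2.97 TPM in young replicate 1 and entries at 0 in the other young libraries. In old libraries it had 2.47 TPM in replicate 1 and was listed at 0 in the others. The middle-aged minus young difference was 4.03 log2 units (unadjusted p = 0.00391, adjusted p = 0.370, limma) and old minus middle-aged was -4.09 (unadjusted p = 0.00353, adjusted p = 0.527). Dnmt3l, a cofactor of the methyltransferases that set imprints in germ cells, had 6.48 and 4.29 TPM in middle-aged libraries and was listed at 0 in all old and young ones. Ctcf, the insulator protein that binds the unmethylated control region of H19 and Igf2, had 25.79, 24.33 and 26.52 TPM in young libraries, 37.9 and 32.28 TPM in middle-aged libraries, and 23.68, 31.74 and 25.45 TPM in old libraries (0.44 log2 units, middle-aged minus young, adjusted p = 0.758, limma). Over the list, 11 of 14 were higher in middle-aged minus young (median 0.38), and 5 of 14 higher in old minus middle-aged (median -0.34).

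Of 40 other imprinted genes, 30 were tested, and 13 were higher and 17 lower in old than in young libraries (median -0.11 log2 units). Cdkn1c, the maternally expressed inhibitor of cyclin-dependent kinases that restrains cell division, had 5.43, 11.32 and 12.38 TPM in young libraries, 8.33 and 11.09 TPM in middle-aged libraries, and 24.84, 25.82 and 23.16 TPM in old libraries. The old libraries lay close together and above all others (1.33 log2 units against young, SE 0.52, unadjusted p = 0.0274, adjusted p = 0.808, limma). Peg10, derived from a retrotransposon, had 5.56, 7.78 and 8.47 TPM in young libraries, 14.26 and 13.91 TPM in middle-aged libraries, and 14.71, 15.62 and 20.04 TPM in old libraries, so that all young libraries were below all others (1.11 log2 units, old minus young). Nap1l5 was lower with overlapping groups (-1.61 log2 units, unadjusted p = 0.0177, adjusted p = 0.763), and Ube3a lower without overlap (-0.80). An unadjusted p under 0.05 was found for 1 higher and 1 lower of the 30, against 5.89% of all genes in either direction. Without overlap 4 of the 30 were higher and 2 lower, against 5.85% and 4.16% of all genes.

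In middle-aged minus young, 14 of these 30 were higher and 16 lower (median -0.10 log2 units). An unadjusted p under 0.05 was found for 2 of the 30, against 7.78% of all genes: Rian and Plagl1, the zinc finger regulator of growth genes, both lower. Plagl1 is named after its values were seen, as is Zim1 here. Plagl1 had 15.47 and 18.74 TPM in middle-aged libraries and 23.77, 54.35 and 81 TPM in young libraries (-1.42 log2 units, unadjusted p = 0.0336, adjusted p = 0.588, limma). In old minus middle-aged 17 were higher and 13 lower (median 0.20). An unadjusted p under 0.05 was found for 1 higher gene, Zim1 (1.44 log2 units), and 1 lower gene, Nap1l5 (-1.48), against 6.19% of all genes.

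**Figure D4:**
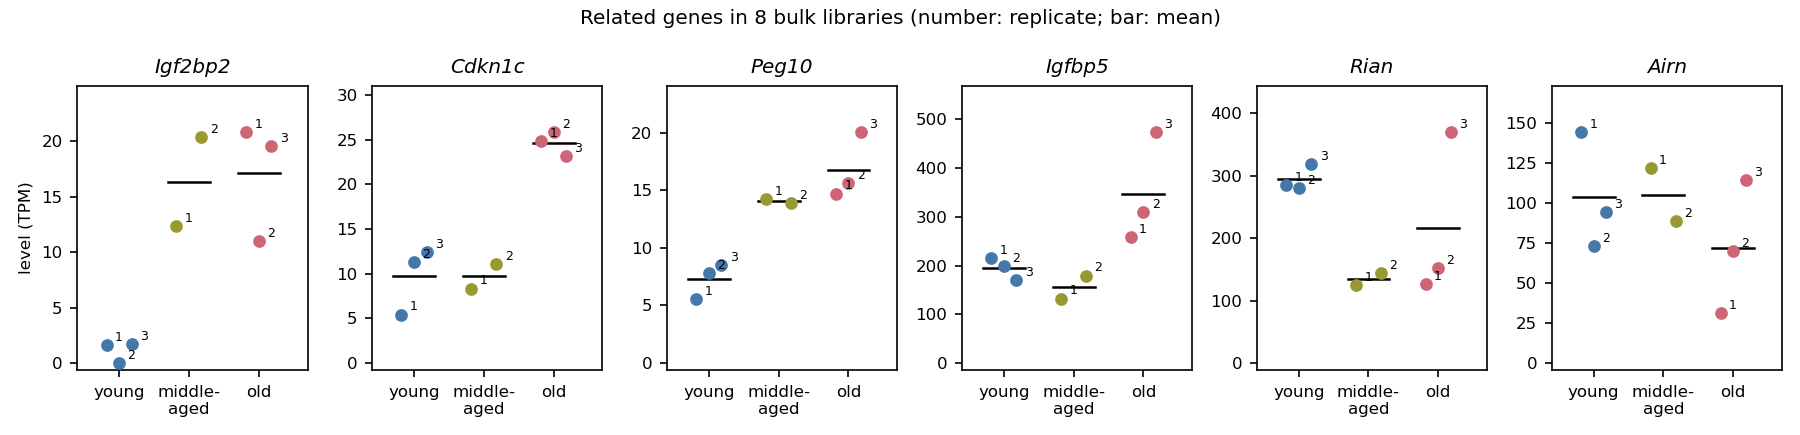
Level in TPM (linear axes) of 6 related genes in each bulk library, by age, with replicate numbers and a bar at the mean of groups in which no library is listed at 0. Igf2bp2 and Peg10 are lowest in young libraries, Cdkn1c and Igfbp5 highest in old ones (23.16 TPM or more and 258.02 TPM or more), and Rian is lower in both middle-aged libraries than in all young ones.

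Markers of other cell types differed in level between the same bulk libraries. The 13 muscle stem cell markers, Pax7 and Myf5 among them, summed to 1939 to 2191 TPM in young libraries. They summed to 1579 to 2080 TPM in middle-aged libraries and 1442 to 2172 TPM in old libraries, so markers of the labelled cell type were present in all. Of the 13, 4 were higher and 9 lower in old than in young libraries (median -0.29 log2 units). In middle-aged minus young, 1 was higher and 12 lower (median -0.30). The 11 Schwann cell markers summed to 127.21 to 199.86 TPM in young libraries, 197.58 to 368.5 TPM in middle-aged libraries and 526.22 to 1450 TPM in old libraries, and all 11 were higher in old than in young libraries (median 2.45 log2 units). The 15 fibroblast markers summed to 1168 to 1590 TPM in young libraries, 1331 to 1590 TPM in middle-aged libraries and 1530 to 2176 TPM in old libraries, and 10 of 13 tested were higher in old ones (median 0.71). Among fibroblast markers Pi16 was at 0 in all libraries, Clec3b at 0 in 7, Ly6a at 0 in all old libraries and 1 young one, Cd248 at 0 in 2 and Pdgfra at 0 in 1. The 3 that were lower in old libraries were Ly6a (-4.48 log2 units, unadjusted p = 0.0151, adjusted p = 0.738, limma), Col3a1 (-0.83, without overlap, unadjusted p = 0.0380, adjusted p = 0.831) and Dpt (-0.20).

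The 8 tenocyte markers summed to 15.24 to 32.16 TPM in young libraries, 120.02 to 144.94 TPM in middle-aged libraries and 70.61 to 100.59 TPM in old libraries (7 of 7 tested higher in old, median 1.27), with Scx and Comp at 0 in 6 libraries each. The 10 macrophage markers summed to 29.08 to 49.41 TPM in young libraries, 84.99 to 133.78 TPM in middle-aged libraries and 28.37 to 65.2 TPM in old libraries, with C1qa at 0 in all 8. Of the 7 tested, 4 were higher and 3 lower in old than in young libraries (median 0.64). In middle-aged minus young 6 were higher and 1 lower, and Lyz2 alone had 78.65 and 58.24 TPM of the middle-aged sums. The 10 endothelial markers summed to 33.01 to 48.37 TPM in young libraries, 63.37 to 98.62 TPM in middle-aged libraries and 44.06 to 72.51 TPM in old libraries (median 0.26), with Tie1, Egfl7 and Cldn5 at 0 in all. The 10 smooth muscle and pericyte markers summed to 507.64 to 681.61 TPM in young libraries, 555.14 to 718.36 TPM in middle-aged libraries and 460.5 to 929.63 TPM in old libraries, so that the sums overlapped. Single markers moved in opposite directions, with 5 higher and 5 lower in old than in young libraries (median -0.10). Without overlap 3 were higher (Acta2, Myh11 and Mcam) and 1 lower (Kcnj8), against 5.85% and 4.16% of all genes. Mitochondrially encoded genes took 37.7 to 39.9% of TPM in young libraries, 32.7 to 42.2% in middle-aged libraries and 35.3 to 46.5% in old libraries. The part of these cell types in the differences of Igf2, Igf1, Igf1r, H19, Igfbp5 and Cdkn1c between old and other libraries, and in those of Meg3, Peg3, Grb10 and Mest in middle-aged libraries, was not tested.

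Single-cell wells show which of the genes were found in the same cells. A gene counted as found in a well at 1 TPM or more, and no test between ages was made, since each age is 1 mouse. Depth differed greatly: the 31 old wells held between 3 and 2950 genes with a median of 64, and the 64 young wells between 7 and 3621 with a median of 1854. Only 7 old wells held 1000 genes or more (median 1820), against 54 young wells (median 1934), so shares among these deeper wells are given beside those over all wells. Intervals are exact Clopper-Pearson 95% intervals for counting error between wells only. Of muscle stem cell markers, Myf5 was found in 7 of 7 deeper old and 50 of 54 deeper young wells, and Pax7 in 5 of 7 and 38 of 54.

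At the limit of 1 TPM, receptors were found more widely than ligands in young wells. For Igf1r this depends on the limit, since its median was 9.47 TPM in the young wells that held it. Most of those wells would not count at a limit of 10 TPM, while the median of Igf2r was 21.3 TPM. Igf2r was found in 6 of 31 old wells (19.4%, interval 7.45 to 37.5%) and in 42 of 64 young wells (65.6%, interval 52.7 to 77.1%), and among deeper wells in 6 of 7 old and 41 of 54 young. Igf1r was found in 3 of 31 old wells (9.68%, interval 2.04 to 25.8%) and in 33 of 64 young wells (51.6%, interval 38.7 to 64.2%), and among deeper wells in 3 of 7 old and 33 of 54 young.

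Igf2 was found in 3 of 31 old wells (9.68%, interval 2.04 to 25.8%) and in 14 of 64 young wells (21.9%, interval 12.5 to 33.97%), and among deeper wells in 1 of 7 old and 14 of 54 young. Where found in young wells its level had a median of 25.8 TPM and reached from 2.63 to 550.12 TPM, and the 3 highest wells (550.12, 221.35 and 209.6 TPM) held 74.6% of the summed Igf2 TPM of all young wells. Igf1 was found in 0 of 31 old wells, which allows a share of up to 9.68% by a limit of 3 wells (exact interval up to 11.2%), and in 3 of 64 young wells (4.69%, interval 0.98 to 13.1%), at 91.8, 178.45 and 212.36 TPM. Among deeper wells it was in 0 of 7 old (interval up to 40.96%) and 3 of 54 young, so at this depth its absence from old cells is not shown. So each ligand was high in a few wells. The 3 highest young wells held 25.6% of the summed TPM of Igf2r and 34.5% of that of Igf1r. This share depends on how many wells hold a gene, so it does not set ligands apart from receptors. It was 100% for H19 and Dlk1, 99.1% for Mest and 58.1% for Grb10, against 36.4% for Meg3 and 31.8% for Peg3.

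Peg3 was the gene found most often in old wells, in 11 of 31 (35.5%, interval 19.2 to 54.6%), and was in 41 of 64 young wells (64.1%, interval 51.1 to 75.7%), with 7 of 7 and 41 of 54 among deeper wells. Meg3 was found in 5 of 31 old and 30 of 64 young wells (deeper wells, 3 of 7 old and 30 of 54 young), with a median of 92.9 TPM and a highest value of 719.82 TPM in the young wells that held it. Grb10 was found in 3 of 31 old (9.68%) and 17 of 64 young wells (26.6%). Among deeper wells it was in 3 of 7 old (42.9%, interval 9.90 to 81.6%) and 17 of 54 young (31.5%, interval 19.5 to 45.6%), with overlapping intervals. The order of the ages thus turned with depth for Grb10. It also turned for Igf2r, Peg3, Pax7 and Myf5, but not for Igf2, Igf1r or Meg3. H19 was found in 1 of 31 old and 1 of 64 young wells, Dlk1 in 0 of 31 and 1 of 64, and Mest in 1 of 31 old and 2 of 64 young, so these 3 genes were each found in 2 wells or fewer per age. Among deeper wells the counts were 1 of 7 old and 1 of 54 young for H19, 0 of 7 and 1 of 54 for Dlk1, and 1 of 7 and 2 of 54 for Mest.

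**Figure D5:**
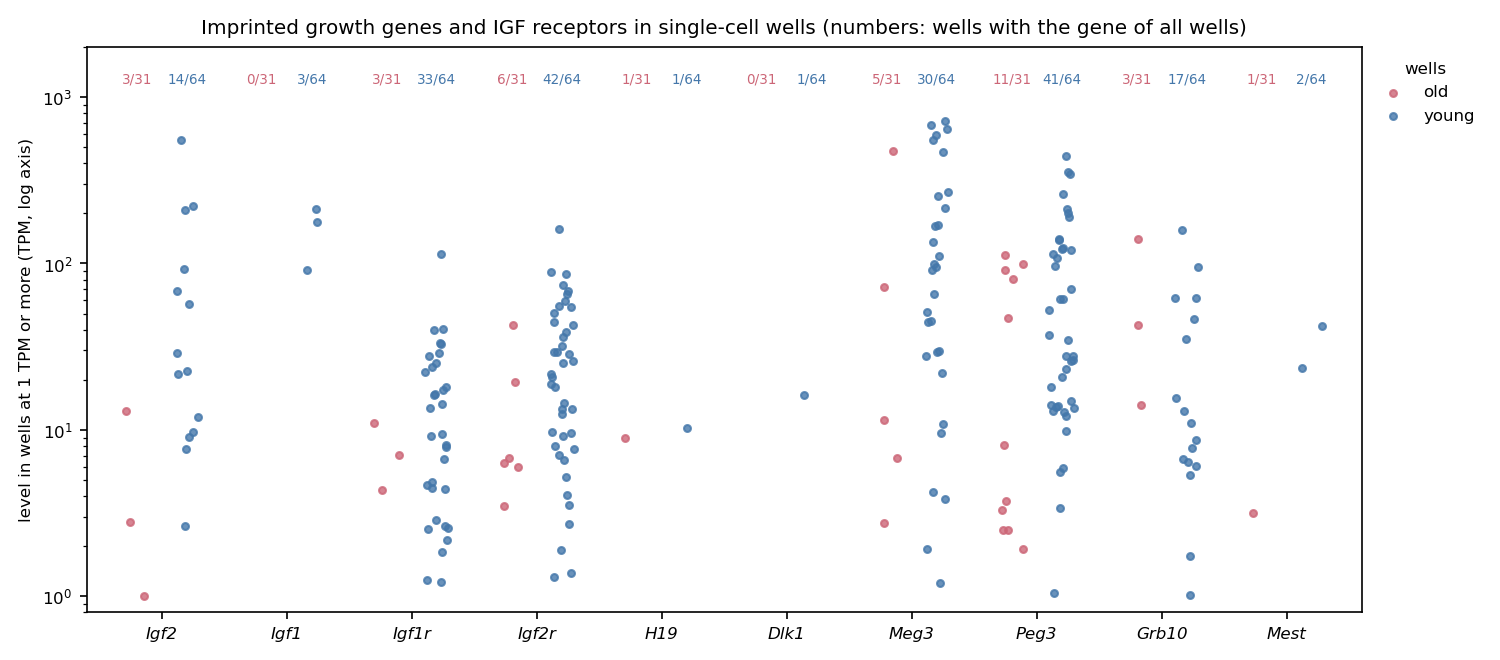
Level in TPM (log axis) of each of the 10 genes in the single-cell wells where it was at 1 TPM or more, old wells left of young wells, 1 point per well; the numbers above give wells with the gene of all wells. Igf2r (42 of 64) and Peg3 (41 of 64) are found in most young wells, whereas Igf2 (14 of 64) and Igf1 (3 of 64) are found in few and reach 550.12 and 212.36 TPM there.

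Among the 54 deeper young wells, Igf2r was in 12 of the 14 wells with Igf2 (85.7%), against 75.9% of all 54. Igf1r was in 11 of these 14 (78.6%), against 61.1% of all 54, and Peg3 in 13 of them (92.9%), against 75.9%. Igf1r and Igf2r were found together in 25 wells, which is 75.8% of the wells with Igf1r and 60.98% of those with Igf2r. Igf2 and Igf1 were found together in 0 wells, where Igf2 was in 25.9% of the 54 wells and Igf1 in only 3. With so few Igf1 wells, this count does not show that different cells make the 2 ligands. The wells differ in depth, so these shares are descriptions. Igf2bp2 was found in 0 of 31 old wells (limit of 3 wells 9.68%, exact interval up to 11.2%) and in 8 of 64 young wells (12.5%, interval 5.55 to 23.2%), and among deeper wells in 0 of 7 old (interval up to 40.96%) and 8 of 54 young. In the young wells that held it the median was 24.7 TPM and the highest 269 TPM. Its mean over all young wells was 7.87 TPM, while the young bulk libraries reached at most 1.72 TPM. So the higher old level of the bulk libraries was not seen in wells, where few old wells were deep.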

How the data were processed

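RNA was measured by sequencing in 8 bulk libraries and 95 single-cell wells. Both deposited tables hold TPM, per the labels; the authors aligned reads with STAR to mm10, per the submitters' processing notes. Not given in the sources used here: STAR's version, the annotation, strandedness and the quantification tool. The tables give no read counts, so no depth per bulk library, counting interval or floor was computed, and precision rests on the spread between libraries. Genes at 1 TPM or more were fewest in young replicate 2 (12849) and old replicate 1 (14262), and reached 17114 in old replicate 2. Dlk1 and Igf2bp2 were listed at 0 in that young library, and Eif4ebp1 in that old one. Middle-aged replicate 1, where H19 was listed at 0, had 17004 such genes. As TPM add up to a fixed total, a rise of some genes lowers others. Library totals lay between 999999.2 and 1000000.9 in bulk. Of 45798 bulk entries, 43283 carried an Ensembl ID, 92 were spike-ins and 2423 other entries were left out; the table of wells held 45797 entries.

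The 10 genes and all lists were chosen with earlier results of these data known. Groups follow the labels, and mice were separate animals per the design text. limma 3.58.1 in R 4.3.3 was fitted to log2(TPM + 1) of 22492 genes whose mean reached 1 TPM, all 8 libraries together with a mean per age and an intensity trend, two-sided, with Benjamini-Hochberg adjustment over all genes in each comparison and a threshold of 0.05. It was checked on simulated data. Fold changes on this scale understate those of low genes. Alternatives were pseudocounts of 0.1 and 5, no filter, a mean of at least 5 TPM, TPM without mitochondrial genes, quantile normalization, a replicate block and leaving out each library. Replicate numbers do not pair mice: with group means removed, same-numbered libraries had Pearson r between -0.012 and 0.005 over genes.

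The named genes are the 10, up to 4 genes of each related list with the smallest p for old minus young, and the 3 most similar genes by Pearson r, of which the first is given for most. Zfp57, Dnmt3l, Ctcf, Pappa2, Plagl1, Zim1, Mirg and Mapkapk3 were named after their values were seen, and Airn, Copg2, Rian and Irs1 for their position or non-overlap. 1 gene that this rule names is not reported here. Marker lists are given as counts and summed TPM. No gene stood in more than 1 list. The list of 7 microRNA genes had none past the filter, all being at 0 in bulk. Wells, intervals and figures used scipy 1.17.1, pandas 2.3.3, numpy 2.4.6 and matplotlib 3.10.9 under Python 3.11.15.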

Additional observations from a re-analysis of the deposited data

How the results depend on the processing

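For old minus young, 0 genes were called under every alternative, replicate block included (0). Of 149 recomputed differences of the 10 genes in that comparison, 144 kept their direction and their side of the threshold, and the other 5 concern Igf2r, whose difference was 0.0076 without mitochondrial genes and -0.17 to 0.084 without any 1 library. For middle-aged minus young, 1 gene was called, against 7 with a pseudocount of 0.1, 5 after quantile normalization, 2 at a mean of at least 5 TPM, and 0 with a pseudocount of 5, without a filter, without mitochondrial genes or with the replicate block. Leaving out 1 library gave 0 to 884 called genes, with 599 without middle-aged replicate 1 and 884 without middle-aged replicate 2, where 1 lone library stands for the group. For old minus middle-aged, 0 genes were called, against 6 with a pseudocount of 0.1 and 1 after quantile normalization, and 0 to 799 without 1 library (557 without middle-aged replicate 1, 799 without middle-aged replicate 2). Middle-aged minus young differences turned for Igf1r (-0.016 without mitochondrial genes, -0.19 after quantile normalization, -0.11 with the replicate block) and for Dlk1 (-0.066 after quantile normalization). Without 1 library, middle-aged minus young lay between -4.00 and 0.15 for H19, -0.16 and 0.17 for Igf1r, -0.48 and 0.15 for Igf2r, and -0.28 and 1.08 for Dlk1. Old minus middle-aged lay between -1.20 and 0.55 for Igf1, -0.17 and 0.46 for Igf2r, -0.36 and 0.90 for Dlk1, and -0.19 and 1.17 for Mest. The cause was not tested. The block changed no call of the 10 genes. The 237 recomputed old minus young differences of 16 related genes all kept direction and side. In wells, 13 of 60 recomputed shares left their interval, and the settings tried included a limit of 10 TPM in place of 1. The design limits all comparisons to 2 or 3 mice a group, unread depth in bulk, and shallow old wells.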
